A study of Mus musculus with 4 samples.

Results

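The potassium channel genes are the genes of the deposited table whose symbol begins with Kcn, followed by letters and a number, or is an Hcn symbol with a number, with Kcne2 left out. There were 77 of them among 15713 genes, on 20 chromosomes. The mouse annotation GENCODE vM21 lists 95 such symbols, and the other 18 were not analysed here. The 4 libraries hold messenger RNA of hippocampus, taken at 11 to 12 weeks of age from mice of the inbred strain C57BL/6. In the ATO group 2 libraries came from mice with a developmental exposure to ATO at 5000 ppb, and in the Ctr group 2 came from untreated mice. The labels do not spell out ATO, and the series title speaks of arsenic and of offspring. They name no promoter, transgene or cell sorting, so each library is whole tissue. Nothing in them says how many animals went into a library or that replicates came from separate litters. Each p-value therefore sets a difference only against the spread between these libraries, which may be technical. It may not extend to other animals or litters.

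Potassium channels let potassium ions out of neurons and glia, and so set the resting potential, the shape of the action potential and the rate of repetitive firing. Voltage-gated (Kv) channels open on depolarisation, calcium- and sodium-activated channels open when those ions enter, inward rectifiers (Kir) and tandem-pore-domain (K2P) channels act near rest, and the HCN channels, which also pass sodium, open on hyperpolarisation. Silent Kv subunits and cytosolic or membrane-bound auxiliary subunits change the gating and traffic of the pore-forming ones. In the hippocampus these channels are known for tuning dendritic integration and transmitter release, and in the choroid plexus, the secretory epithelium of the ventricles, for potassium transport.

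The pore of most of these channels is lined by a selectivity filter that passes potassium and holds back sodium. The HCN channels also pass sodium, and the auxiliary subunits form no pore. The filter signature was searched as threonine, serine or cysteine, any residue, glycine, then tyrosine, phenylalanine or leucine, and glycine, in the translation of the longest coding transcript of each gene. All 66 members of the pore-forming, silent and HCN classes held it, and each of the 9 K2P members, whose subunits carry a pair of pore domains, held it at least 2 times, as did 3 members of other classes. Among the 11 auxiliary subunits 3 matched, Kcnab1, Kcnab2 and Kcnab3, which are cytosolic and form no pore, so a match alone does not mark a filter. Over all 13855 genes with a coding sequence, 7.03% held the signature, against 89.6% of the members. The symbols name channel genes and the pattern describes channel filters, so a high share among the members was given in advance. The 6 members that passed the test of ATO against Ctr follow, with the filter codons in capitals, 5′ to 3′ on the coding strand, from GENCODE vM21 transcripts (GRCm38).
Kcnj13: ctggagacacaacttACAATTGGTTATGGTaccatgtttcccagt
Kcnj2: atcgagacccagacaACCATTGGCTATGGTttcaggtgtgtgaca
Kcnh1: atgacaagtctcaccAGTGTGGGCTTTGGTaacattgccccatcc
Kcnh7: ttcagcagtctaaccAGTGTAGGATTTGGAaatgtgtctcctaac
Kcnt1: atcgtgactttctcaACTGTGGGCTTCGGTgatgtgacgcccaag
Kcna4: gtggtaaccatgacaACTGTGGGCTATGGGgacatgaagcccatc
These stretches lie in coding exons at chr1:87389006-87389050 on the minus strand for Kcnj13, chr11:111072192-111072236 (plus) for Kcnj2, chr1:192337739-192337783 (plus) for Kcnh1, chr2:62777328-62777372 (minus) for Kcnh7, chr2:25894352-25894396 (plus) for Kcnt1 and chr2:107296480-107296524 (plus) for Kcna4. In the Kir pair (Kcnj13 and Kcnj2) and in the Kcnh pair, 1 gene rose and the other fell in ATO.

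Library totals were 17251032 and 16696546 counts in ATO and 14832214 and 15078919 in Ctr. The members summed to 5318 and 5417 CPM (counts scaled to a common library total after TMM normalisation) in ATO and 5628 and 5395 in Ctr, so the groups overlapped. Markers of the regions and cell types that the tissue can hold moved too. For comparison, 2.87% of all genes rose and 0.859% fell at an adjusted p under 0.05 in edgeR. All 20 choroid plexus markers rose in ATO, with summed levels of 3382 and 4237 CPM in ATO, against 154 and 222 in Ctr. Some of them, such as Kcne2 and Col8a1, were under 1 CPM in both Ctr libraries. No gene of the table was under 1 CPM in more than 2 libraries, so the direction of such markers was fixed by their presence in it. Of 9 ependymal markers 7 rose. Of 10 markers of CA1 pyramidal neurons 3 fell, Wfs1 and Dcn among them, of which Dcn is also on the leptomeningeal list; the summed level of the 10 was 527 and 719 CPM in ATO, against 767 and 769.8 in Ctr. Among 11 dentate granule markers 2 rose (sums 798 and 706 CPM in ATO, 671 and 604 in Ctr), and of 11 interneuron markers 1 fell (1254 and 1335.5 CPM in ATO, 1430 and 1503 in Ctr). Of 11 astrocyte markers 1 rose, and the summed microglial markers overlapped between the groups (369 and 417 CPM in ATO, 396 and 372 in Ctr). Of 10 leptomeningeal markers 1 rose, Igf2, and 1 fell, Dcn (median log2 0.69, sums 675 and 368 CPM in ATO, 442 and 304 in Ctr). No tested marker was at 0 in any library, and the markers Wfs1, Prox1 and Grik4 of the hippocampal fields were each above 60 CPM in all 4.

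Of the 77 potassium channel genes, 2 rose and 4 fell in ATO at a Benjamini-Hochberg adjusted p under 0.05 in edgeR's quasi-likelihood test. The inward rectifier gene Kcnj13 rose 17.2-fold and the EAG channel gene Kcnh1 1.33-fold. The sodium-activated channel gene Kcnt1, the A-type channel gene Kcna4, the inward rectifier gene Kcnj2 and the ERG channel gene Kcnh7 fell. The share of members that rose was 2.60%, beside 2.87% of all genes, and 5.19% of the members fell, beside 0.859% of all genes. Both ATO libraries lay above both Ctr libraries for 10 members (13.0%, beside 24.8% of all genes) and below both for 27 (35.1%, beside 23.4%). Among the 10 are Kcnj13 and Kcnmb1, which were under 1 CPM in both Ctr libraries, so their direction was fixed by their presence in the table. The median log2 fold change was -0.05 over the members and -0.005 over all genes, and 1 member differed by more than 2-fold. Of the members, 20 of 77 had an unadjusted p under 0.05, 6 higher and 14 lower in ATO, beside 18.1% of all genes. The calls for Kcnj13, Kcnt1 and Kcna4 held under every alternative tried, while leaving out single libraries moved the number that rose between 1 and 3 and the number that fell between 2 and 6. Since these are whole-tissue libraries, fewer cells of a type and less RNA per cell cannot be told apart.

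**Figure D1:**
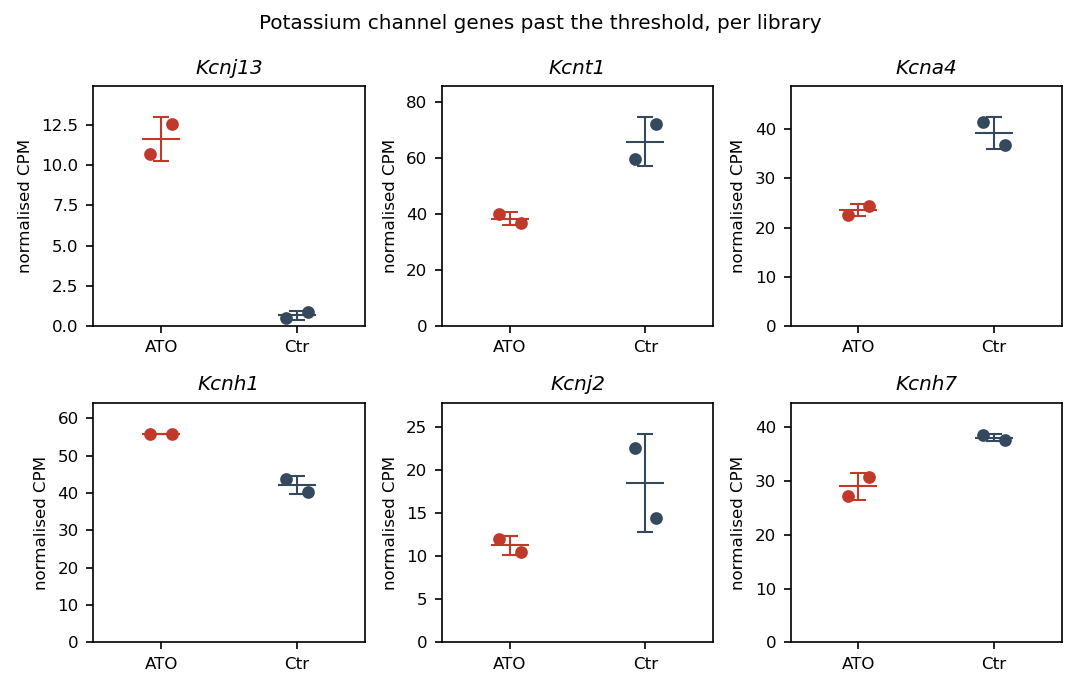
Normalised CPM (y axes, from 0) of the 6 potassium channel genes past the threshold, with 1 point per library, ATO left and Ctr right, and mean with SD (n = 2 per group). In each panel the ATO points lie on one side of the Ctr points, and the Ctr points of Kcnj2 stand apart, at 14.5 and 22.6 CPM.

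Kcnj13 (ENSMUSG00000079436, GRCm38 chromosome 1 from 87386363 to 87394729, minus strand) encodes Kir7.1, an inward rectifier known from the apical membrane of choroid plexus and retinal pigment epithelium. It had 186 and 209 counts in the ATO libraries, against 7 and 13 in the Ctr libraries. Normalised levels were 10.7 and 12.6 CPM in ATO and 0.475 and 0.861 CPM in Ctr, so the groups were far apart. Being under 1 CPM in both Ctr libraries, Kcnj13 is in the table only through its ATO levels, which fixed the direction of its difference. The log2 fold change was 4.10 ± 0.29 (SE, 95% interval 3.48 to 4.73, adjusted p = 6.73e-07), and 3.75 without Ctr replicate 1 and 4.59 without Ctr replicate 2. The size lies within the range of the 20 choroid plexus markers, 1.87 to 6.53, whose median was 4.18. Another channel subunit of that list, Kcne2, which assembles with Kv pores, had a log2 fold change of 4.58.

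Set against the summed counts of those 20 markers, Kcnj13 gave 3.16 and 2.97 counts per 1000 marker counts in ATO, and 3.08 and 3.88 in Ctr. Without Ttr, a choice made after seeing the data, it gave 9.74 and 9.23 counts per 1000 in ATO, and 3.55 and 5.37 in Ctr. Ttr, which encodes transthyretin, held 39829 of 58921 marker counts in ATO replicate 1 and 301 of 2272 in Ctr replicate 1. Without Ttr, a single other marker held 12598 of 19092 marker counts in ATO replicate 1 and 1277 of 1971 in Ctr replicate 1. The ATO mean of the ratio was 0.88 of the Ctr mean with Ttr in the sum and 2.13 times the Ctr mean without it. Its direction thus depends on which abundant marker leads the sum, so neither value measures Kcnj13 per amount of choroid plexus RNA. The low Ctr counts of 7 and 13 also limit its precision. Kcnj13 shares exon positions with Gigyf2 on the opposite strand, and whether counting used strand is not given in the sources used here. Gigyf2 had 80.7 and 79.0 CPM in ATO and 73.7 and 72.1 in Ctr (log2 fold change 0.13 ± 0.08, adjusted p = 0.412). Summed ependymal markers were at 55.9 and 41.4 CPM in ATO and 20.1 and 23.0 in Ctr. The part of choroid plexus and ependymal RNA in the difference in Kcnj13 was not tested.

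**Figure D2:**
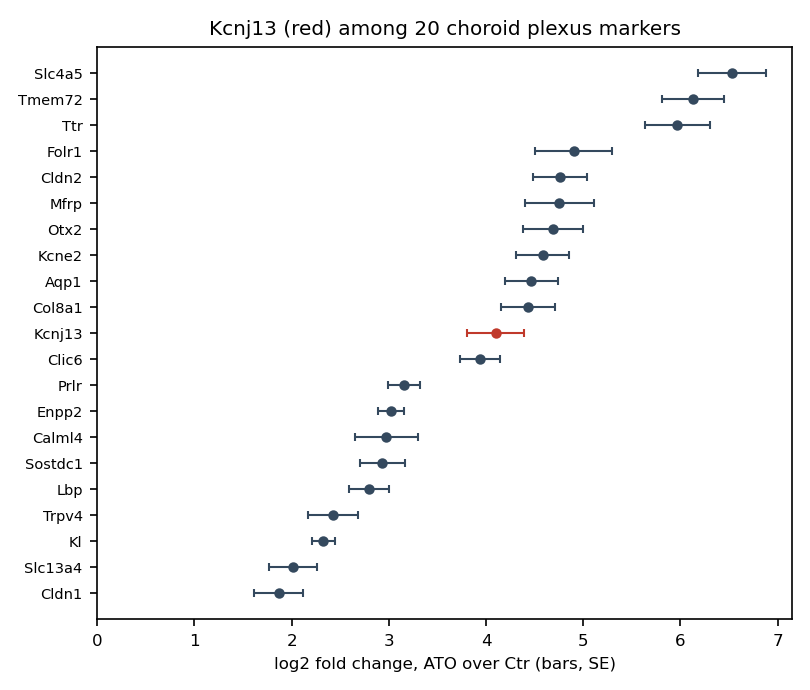
Log2 fold change of ATO over Ctr (x axis, bars are SE, 2 libraries per group) of Kcnj13 in red and of 20 choroid plexus markers in dark blue, ordered by size. Kcnj13, at 4.10, stands in the middle of the markers, between Col8a1 and Clic6.

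The sequence before the start of Kcnj13 is shown with that of Kcnj2, a Kir gene that fell, because the pair differs in base composition. Each is the 250 bases before a RefSeq start (GRCm38.p6), with a TATA-box match (TATAAA) and an E-box match (CACGTG) in capitals.
Kcnj13: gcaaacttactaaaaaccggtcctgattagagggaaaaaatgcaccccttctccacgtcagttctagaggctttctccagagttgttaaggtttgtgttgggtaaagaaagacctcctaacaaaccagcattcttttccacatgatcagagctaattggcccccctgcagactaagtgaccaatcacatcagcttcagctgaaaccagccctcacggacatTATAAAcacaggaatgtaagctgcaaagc
Kcnj2: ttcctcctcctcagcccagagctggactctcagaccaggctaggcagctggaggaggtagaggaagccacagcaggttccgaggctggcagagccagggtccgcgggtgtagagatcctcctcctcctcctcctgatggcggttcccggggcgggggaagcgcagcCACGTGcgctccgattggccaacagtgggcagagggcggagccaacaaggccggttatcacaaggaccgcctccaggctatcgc
The windows are chr1:87394730-87394979 on the minus strand and chr11:111065914-111066163 on the plus strand. G and C made up 45.2% of the Kcnj13 window and 65.6% of the Kcnj2 window. The share was 62.0% for Kcnh1, 65.2% for Kcna4 and 67.6% for Kcnh7, while Kcnt1, which also passed, had no window. The median was 59.6% over the 76 windows of the 53 members that matched the RefSeq table and 52.4% over all 32851 windows. TATAAA occurred on either strand in 3 of the 76 windows, beside 12.4% of all windows. CACGTG occurred in 5 of the 76, beside 6.02% of all windows. The Otx2-type motif TAATCC occurred in 1 of the 76 (6.25% of all windows), which was not that of Kcnj13. The cyclic AMP response element TGACGTCA was in none of the members' windows (1.55% of all). A match or its absence is a description of these letters only.

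The other inward rectifiers divide into strong rectifiers of the Kir2 group, G-protein-gated GIRK channels, glial channels and the ATP-sensitive pores. Among the 12 Kir members 1 rose and 1 fell, beside 2.87% and 0.859% of all genes, and 10 did not pass. Kcnj2 (ENSMUSG00000041695, chromosome 11 from 111066164 to 111076821, plus strand) encodes Kir2.1, a strong rectifier that holds the resting potential near that of potassium. It had 12.1 and 10.5 CPM in ATO, against 22.6 and 14.5 in Ctr, where replicate 1 stood well above replicate 2. Of 9 endothelial markers 1 fell (0.859% of all genes), Kdr, at 13.3 and 12.5 CPM in ATO and 22.1 and 17.7 in Ctr. The endothelial markers summed to 275 and 266 CPM in ATO and 331 and 261 in Ctr. Their part in the difference in Kcnj2 was not tested. The difference in log2 was -0.71 ± 0.19 (SE, adjusted p = 0.0483); it was -0.36 without Ctr replicate 1 (adjusted p = 0.289) and -1.002 without Ctr replicate 2. DESeq2's Wald test (0.0815), limma-voom (0.0663) and library size only (0.0619) also ended the call. The related Kir2.3 gene Kcnj4 had 52.4 and 49.1 CPM in ATO and 60.03 and 64.1 in Ctr, without overlap, at -0.29 ± 0.09 (adjusted p = 0.0816). The Kir2.2 gene Kcnj12, at under 4 CPM in each library and named after its values were seen, gave -0.56 ± 0.29 (adjusted p = 0.329).

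The GIRK genes, whose products answer to GABA-B, adenosine and serotonin receptors, lay close to no difference. Kcnj3, the most abundant Kir member per length, had 155.9 and 156.7 CPM in ATO and 171.5 and 158.9 in Ctr, with a 95% interval of the log2 fold change from -0.24 to 0.08. Intervals ran from -0.23 to 0.24 for Kcnj6 and from -0.23 to 0.13 for Kcnj9. The astrocyte channel gene Kcnj10, which clears potassium from the extracellular space, had 145.7 and 153.1 CPM in ATO and 147.3 and 122.2 in Ctr, overlapping (0.15 ± 0.09, adjusted p = 0.410), and its partner Kcnj16 gave -0.13 ± 0.11 (adjusted p = 0.593). Of 15 genes listed for GIRK signalling, 1 rose and 0 fell in edgeR, beside 2.87% and 0.859% of all genes. The median was -0.01, and no other gene of the list had an unadjusted p under 0.05 (18.1% of all genes). The gene was Htr1a, a serotonin receptor gene, at 42.4 and 47.3 CPM in ATO and 36.6 and 31.1 in Ctr (log2 0.40 ± 0.11, adjusted p = 0.0496). DESeq2's Wald test (0.138), limma-voom (0.0518) and library size only (0.0514) ended that call, as did leaving out Ctr replicate 2 (0.265) or ATO replicate 2 (0.220). Rgs7, a regulator of G-protein signalling, and the somatostatin receptor gene Sstr2 had adjusted p-values of 0.324 and 0.346.

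Kcnt1 had the largest drop among the members that passed. It encodes Slack, a channel opened by sodium entering during firing that contributes to the slow afterhyperpolarisation (ENSMUSG00000058740, chromosome 2 from 25863734 to 25918273, plus strand). It had 697 and 609 counts in ATO, against 878 and 1087 in Ctr, or 40.01 and 36.7 CPM in ATO and 59.6 and 71.98 in Ctr. Both ATO libraries lay well below both Ctr libraries. The log2 fold change was -0.78 ± 0.10 (95% interval -0.998 to -0.559, adjusted p = 0.000472), 1.72-fold lower in ATO, and without each library in turn it lay between -0.91 and -0.64. Its paralogue Kcnt2, also sodium-activated and named after its values were seen, had 34.6 and 35.3 CPM in ATO and 35.1 and 33.8 in Ctr.

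Of the other calcium- and sodium-activated members 0 passed in edgeR, and 1, Kcnma1, had an unadjusted p under 0.05 (18.1% of all genes). The BK channel gene Kcnma1, which repolarises action potentials, had 206.8 and 197.2 CPM in ATO and 234 and 223 in Ctr, without overlap, at -0.18 ± 0.07 (adjusted p = 0.222). The SK channel genes Kcnn1, Kcnn2 and Kcnn3, which give the medium afterhyperpolarisation, had log2 fold changes of 0.08, 0.10 and 0.00. The summed level of the 7 genes of this class was 384 and 376 CPM in ATO and 431 and 425 in Ctr, while 4 of the 7 had a positive log2 fold change and the median was 0.00.

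Kcna4 (ENSMUSG00000042604, chromosome 2 from 107290639 to 107298502, plus strand) encodes Kv1.4, a rapidly inactivating A-type channel of axons and terminals. Its levels were 22.6 and 24.4 CPM in ATO, against 41.4 and 36.8 in Ctr, with no overlap. The log2 fold change was -0.74 ± 0.11 (adjusted p = 0.00109), 1.67-fold lower in ATO, and from -0.82 to -0.65 without each library in turn. The CA1 marker sum was 527 and 719 CPM in ATO and 767 and 769.8 in Ctr, and the interneuron sum 1254 and 1335.5 CPM in ATO and 1430 and 1503 in Ctr. The dentate granule sum was higher in ATO, at 798 and 706 CPM, against 671 and 604 in Ctr. So was the CA3 and CA2 sum, at 606 and 601 CPM in ATO and 579 and 576 in Ctr. That list shares 1 gene with another list. The part of the region markers in the differences in Kcnt1 and Kcna4 was not tested.

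The other 14 Kv pore-forming members did not pass in edgeR, and 1 of them had an unadjusted p under 0.05 (18.1% of all genes). Kcna1 and Kcna2, which assemble with Kv1.4 in axons, had 95% intervals from -0.26 to 0.20 and from -0.17 to 0.15. That of Kcnd2, the dendritic A-type channel, was -0.20 to 0.13, and that of the related Kcnd3 ran from -0.17 to 0.25. The fast-firing channel genes Kcnc1 and Kcnc4 gave -0.04 ± 0.07 and 0.16 ± 0.10. Among 8 silent subunits, which open no channel alone and change Kv2 channels, 0 passed in edgeR, DESeq2 or limma-voom and 2 had an unadjusted p under 0.05 (18.1% of all genes). The 3 with the smallest p were Kcns1 (-0.43 ± 0.16), Kcnf1 (-0.20 ± 0.09) and Kcns3 (-0.39 ± 0.19). Each had both ATO libraries below both Ctr libraries, as did 4 of the 8 in all and 23.4% of all genes.

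In the EAG, ERG and ELK class 1 of 7 members rose and 1 fell, beside 2.87% and 0.859% of all genes. Kcnh1 (ENSMUSG00000058248, chromosome 1 from 192190774 to 192510159, plus strand), the gene of the presynaptic channel EAG1, had 55.9 and 55.8 CPM in ATO, against 43.8 and 40.3 in Ctr. It was higher by 0.41 ± 0.09 in log2 (adjusted p = 0.0215). DESeq2's Wald test (0.0529) ended the call, as did leaving out Ctr replicate 2 (0.128) or ATO replicate 1 (0.0654). Kcnh7 (ENSMUSG00000059742, chromosome 2 from 62693414 to 63184287, minus strand) encodes ERG3, a channel that slows firing. It had 27.3 and 30.8 CPM in ATO and 38.6 and 37.6 in Ctr, a log2 fold change of -0.39 ± 0.10 (adjusted p = 0.0496). DESeq2's Wald test (0.153), limma-voom (0.0511) and library size only (0.0575) ended the call, as did leaving out Ctr replicate 1 (0.117), Ctr replicate 2 (0.139) or ATO replicate 1 (0.379). Its exons overlap those of Gca on the other strand, which had 10.9 and 11.0 CPM in ATO and 11.2 and 11.0 in Ctr. The EAG2 gene Kcnh5 was at 1.72 and 1.14 CPM in ATO and 2.71 and 2.25 in Ctr (-0.78 ± 0.35, adjusted p = 0.251), and Kcnh3, an ELK gene and the most abundant of the class per length, gave -0.09 ± 0.08.

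The KCNQ genes carry the M-current, which muscarinic receptors close. Kcnq3 and Kcnq5 did not pass, at -0.10 ± 0.09 and -0.06 ± 0.08. Of 9 K2P leak channels 0 passed in edgeR, DESeq2 or limma-voom, and 3 had an unadjusted p under 0.05 (18.1% of all genes). Kcnk1, the most abundant of them per length, had 89.8 and 93.6 CPM in ATO and 79.2 and 76.9 in Ctr, without overlap (0.23 ± 0.08, adjusted p = 0.126). The acid-sensitive TASK gene Kcnk9 had 78.8 and 78.5 CPM in ATO and 88.1 and 95.6 in Ctr (-0.22 ± 0.08, adjusted p = 0.149). Kcnk6, at under 5 CPM, gave 0.71 ± 0.27 (adjusted p = 0.176), and the mechanosensitive channel gene Kcnk2 gave -0.02 ± 0.11.

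The HCN channels carry the h-current, which dampens dendritic summation. Hcn2, at 104.5 and 112.4 CPM in ATO and 112.5 and 114.0 in Ctr, did not pass, with a 95% interval from -0.23 to 0.10. The low Hcn3 and Hcn4 did not pass either, at -0.27 ± 0.19 and 0.51 ± 0.40. The HCN binding protein gene Pex5l fell to 119.5 and 141.7 CPM in ATO, against 174.5 and 163.3 in Ctr, at -0.37 ± 0.09 (adjusted p = 0.0320). The part of the region markers in this difference was not tested. Pex5l was the 1 gene to pass of 23 tested channel partners (0 rose in edgeR, median -0.08). Over all genes 2.87% rose and 0.859% fell. Of the 23, 5 had an unadjusted p under 0.05, 1 higher and 4 lower, beside 18.1% of all genes. The call for Pex5l ended without Ctr replicate 1 (0.108), without Ctr replicate 2 (0.0710) and without ATO replicate 1 (0.370). Next by p were the ubiquitin ligase gene Nedd4l (0.29 ± 0.08, adjusted p = 0.0713), which passed without Ctr replicate 1 (0.0343), and the Kv4 partner gene Dpp10 (-0.27 ± 0.10, adjusted p = 0.154).

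None of the 11 auxiliary subunits passed in edgeR, DESeq2 or limma-voom, and 3 of them (Kcnip3, Kcnab3 and Kcnip2) had an unadjusted p under 0.05, beside 18.1% of all genes. The KChIP genes encode calcium-binding subunits of Kv4 channels. Kcnip3, also known as the transcriptional repressor DREAM, had 62.5 and 61.9 CPM in ATO and 77.5 and 73.4 in Ctr (-0.28 ± 0.08, adjusted p = 0.0739), while Kcnip2 had 304 and 281 CPM in ATO and 260.9 and 244.9 in Ctr (0.21 ± 0.08, adjusted p = 0.157). Both were without overlap and of opposite sign, and Kcnip1 gave -0.22 ± 0.13. Of the cytosolic beta subunits of Kv1 channels, Kcnab3 had 19.6 and 23.9 CPM in ATO and 27.7 and 28.9 in Ctr (-0.38 ± 0.12, adjusted p = 0.0996), and it passed without ATO replicate 2 (0.0367). Kcnab1 and Kcnab2 gave -0.14 ± 0.08 and -0.10 ± 0.08, and the BK subunit gene Kcnmb4 -0.18 ± 0.11.

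**Figure D3:**
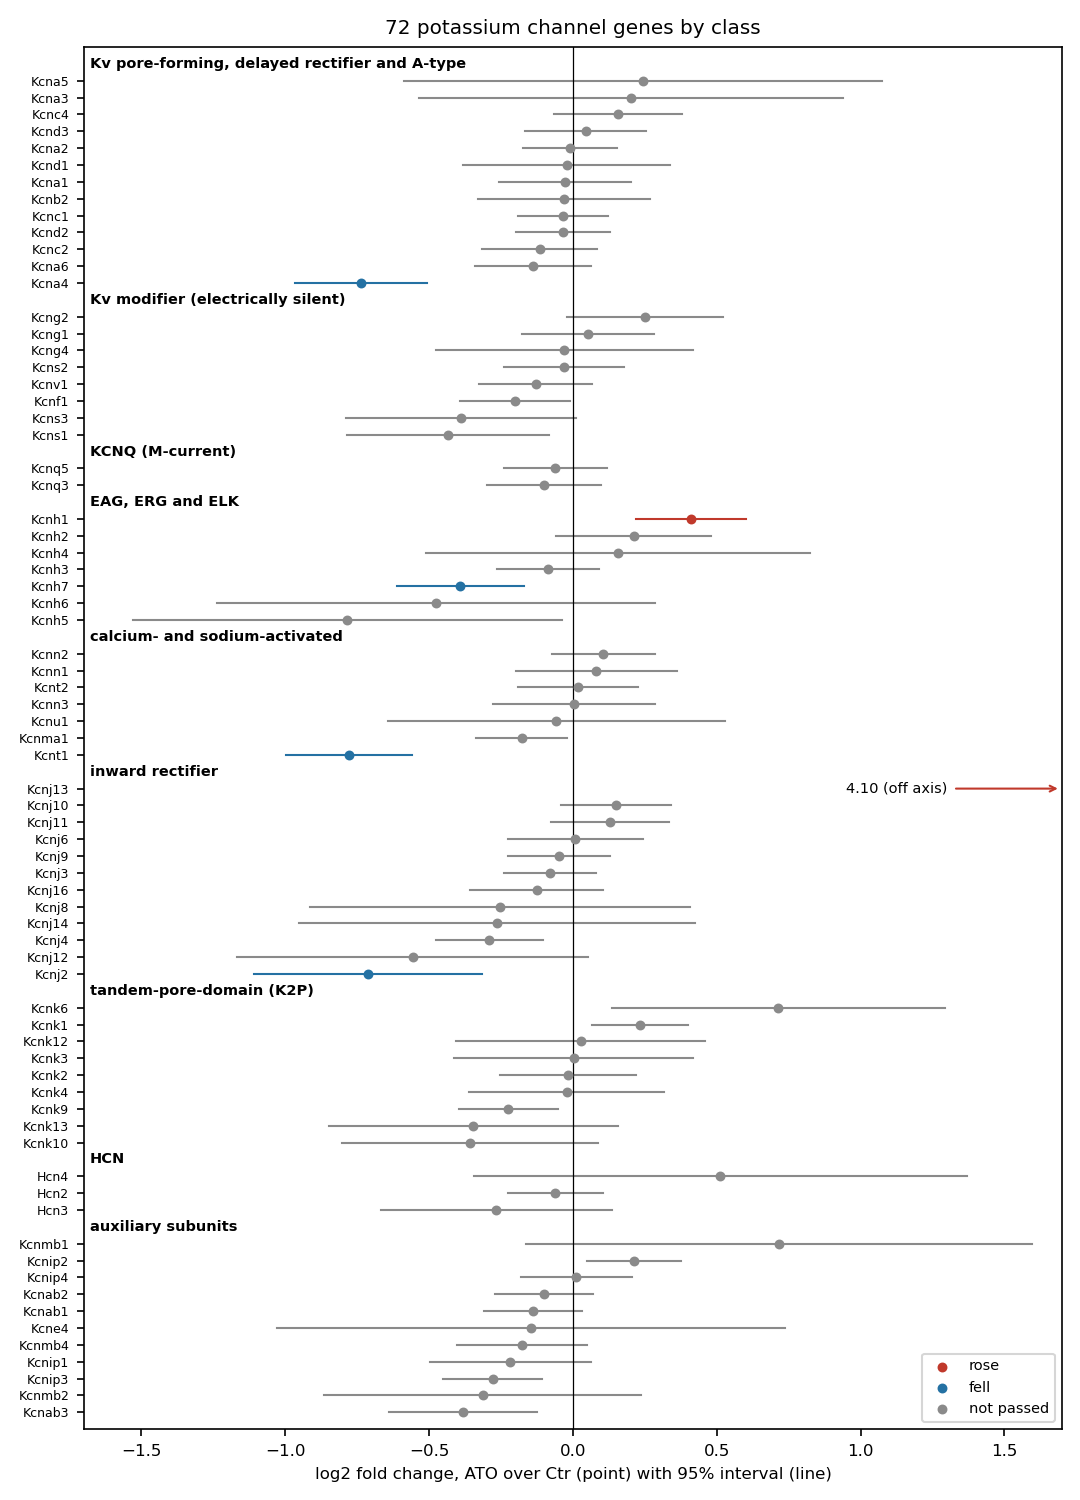
Log2 fold change of ATO over Ctr (x axis) of 72 of the 77 potassium channel genes, grouped by class, with 95% intervals as lines (2 libraries per group) and colour for the edgeR call. Kcnj13, at 4.10, lies beyond the axis, and most points lie near 0. The 4 intervals in blue (fell) lie below 0, as do some in grey (not passed), such as that of Kcnip3. Others in grey, such as that of Kcnk1, lie above 0.

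For 47 of the 77 members the 95% interval of the log2 fold change lay within 0.5 of 0 on either side, so that a larger difference falls outside it. The SE ran from 0.07 to 0.41, and 14 members averaged under 5 CPM over the 4 libraries, where the intervals were widest. Per the authors' deposited table, 4 members had an adjusted p under 0.05 (Kcnj13, Kcnt1, Kcna4 and Kcnh1), and 1, Kcnj13, carried the mark for differential expression.

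Levels were compared between members only per length, as RPKM (normalised CPM per kilobase of annotated exon). Kcnab2, a beta subunit of Kv1 channels, was highest at 140.4 ± 10.4 RPKM in ATO and 150.6 ± 4.71 in Ctr (SD, n = 2 each). Kcnip2 followed at 84.2 ± 4.75 RPKM in ATO and 72.8 ± 3.24 in Ctr. Kcnk1 stood at 41.03 RPKM in ATO and 34.9 in Ctr, and Hcn2 at 33.95 in ATO and 35.4 in Ctr. In Ctr the pair did not differ beyond their SDs of 0.721 and 0.346. At the low end Kcnmb1, a BK beta subunit named after its values were seen, was at 0.329 RPKM in ATO and 0.200 in Ctr. It was under 1 CPM in both Ctr libraries, so its presence in the table fixed this direction. Kcnj13 had 9.16 ± 1.06 RPKM in ATO and 0.526 ± 0.215 in Ctr, and of the members with a lower call Kcna4 was the most abundant, at 4.86 ± 0.258 RPKM in ATO and 8.10 ± 0.677 in Ctr.

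**Figure D4:**
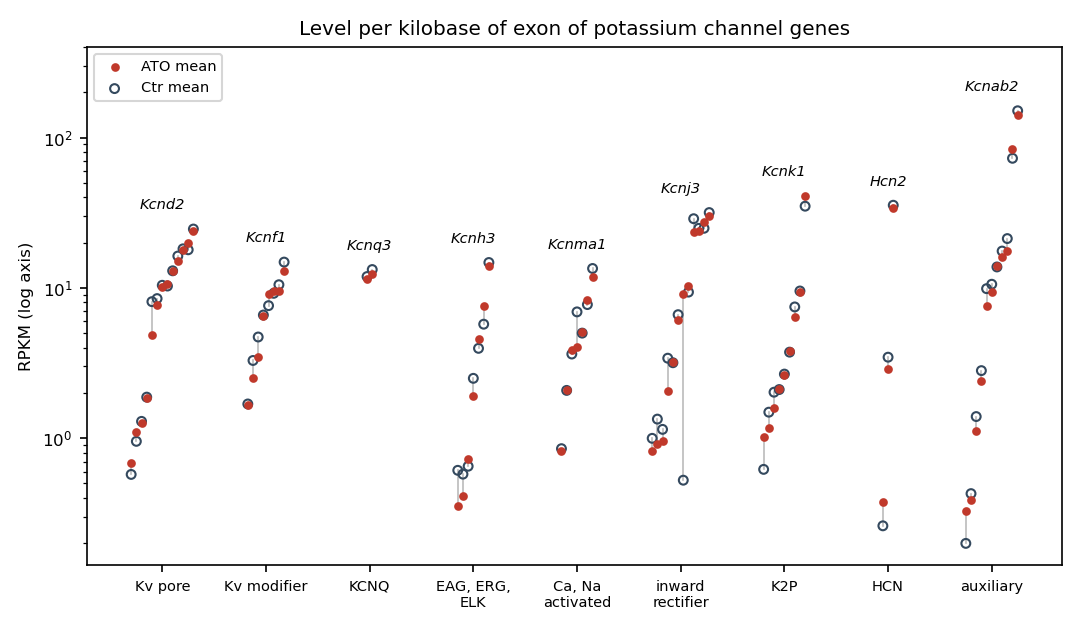
Mean RPKM (log axis) of 72 of the 77 potassium channel genes in ATO (red, filled) and Ctr (open), with a line joining the pair, by class; the gene with the highest level drawn in each class is named. The levels run from 0.200 to 150.6 RPKM, and Kcnj13 has the longest line.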

How the data were processed

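The authors deposited 1 table of 15713 genes. Per the file headers it holds raw counts and FPKM values for each library, and the authors' log2 fold change, p-value and adjusted p-value. Tools in the submitters' processing notes are HISAT2 2.0.1, HTSeq 0.6.1, limma 3.47.15, R 4.1.0, cutadapt 1.9.1 and FastQC 0.10.1, with GRCm38; no source used here gives their roles or settings. No gene of the table was under 1 CPM in more than 2 libraries, and scarcer genes are not analysed here. A gene under 1 CPM in both libraries of a group, such as Kcnj13 in Ctr, is therefore in the table only through the other group.

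All 15713 genes were fitted with edgeR 4.0.16 in R 4.3.3 (filterByExpr, 0 removed; TMM; quasi-likelihood test of ATO against Ctr; Benjamini-Hochberg adjustment over all genes; threshold 0.05). SE is the size of the log2 fold change divided by the square root of F. Positions and exon lengths came from GENCODE vM21 for 99.9% of identifiers. Alternatives were DESeq2 1.42.0, limma-voom (limma 3.58.1), other scalings and filters, the replicate number as a block, and leaving out each library. The fits were tested on simulated data. Members and lists were chosen with earlier results of these data known; named members are those that passed, up to 3 of the smallest p and the most abundant per class, and a fixed set. Some members and markers are not reported here by name.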

Additional observations from a re-analysis of the deposited data

How the results depend on the processing

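Of the results for single genes under the alternatives, 486 kept their direction and call, 21 kept the direction and missed the threshold, 8 passed it newly and 21 changed sign. The count of potassium channel genes that rose, 2, was 1 in DESeq2's Wald test and from 1 to 3 without each library. The count that fell, 4, was 2 with library size only, in DESeq2's Wald test and in limma-voom, and from 2 to 6 without each library. Without Ctr replicate 1, 5 members passed, without Ctr replicate 2 or ATO replicate 1, 4, and without ATO replicate 2, 8. Over all genes, 451 rose and 135 fell; these were 252 and 64 in DESeq2's Wald test, and ran from 180 to 443 and from 42 to 168 without each library. Channel partners that rose and that fell, and GIRK signalling genes that rose, each ran from 0 to 1; the last count was 0 with library size only, in DESeq2's Wald test and in limma-voom. The members' median log2 fold change ran from -0.0931 to -0.0376 without each library. Kcnab2 stood at 112 in the deposited FPKM of ATO, against 140.4 RPKM. The ratio of Kcnj13 to choroid marker counts, ATO mean over Ctr mean, was 0.88. It was 2.13 without Ttr in the sum, an alternative chosen after seeing the data, in which a single other marker holds most counts. None of the genes whose sign changed had passed: Kcnn3 gave -0.000390 with DESeq2's size factors and -0.00100 in its Wald test, and without each library the log2 fold changes ran as Kcnc4 -0.0289 to 0.32, Kcnq3 -0.25 to 0.0658, Kcnq5 -0.15 to 0.0173, Hcn3 -0.56 to 0.10, Hcn4 -0.014 to 1.37, Kcna1 -0.20 to 0.13, Kcna2 -0.0677 to 0.0476, Kcnd2 -0.0859 to 0.0129, Kcnd3 -0.11 to 0.18, Kcnn1 -0.0205 to 0.18, Kcnn3 -0.15 to 0.17, Kcnj6 -0.0295 to 0.046, Kcnj9 -0.13 to 0.0351, Kcnk2 -0.21 to 0.15. The cause was not tested. With the replicate number as a block, 5 members rose and 8 fell, over all genes 890 rose and 476 fell, and among channel partners 1 rose and 2 fell. The labels share replicate numbers across groups but do not say that a number marks a pair. Over all 15713 genes, the log2 difference of replicate 1 from replicate 2 in ATO correlated at 0.12 with that in Ctr. The median log2 fold change of all genes moved by -0.00387 with DESeq2's size factors and by 0.00671 with library size only. With 2 libraries a group, members under 5 CPM had wide intervals, and small differences in them were not detectable at this depth.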
